A study of Mus musculus with 8 samples.

Results

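The NADPH oxidase of phagocytes, NOX2, was followed in donor T cells through 6 of its genes, Cybb, Cyba, Ncf1, Ncf4, Rac1 and Rac2, of 25078 gene rows in the deposited tables. The genes were taken by name as parts of the NOX2 complex. The set was selected on the measured fold change of Cybb, whose rise was among the largest in STAT3-deficient CD4 T cells. All 6 were among the 12428 genes that passed the filter on low counts. Messenger RNA had been measured in 8 libraries of splenic donor T cells on day 6 after hematopoietic cell transplantation (HCT), with 2 libraries for each combination of genotype (WT or STAT3KO) and cell type (CD4 or CD8).

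STAT3KO donors carried floxed Stat3 together with CD4-Cre, which is driven by Cd4 regulatory elements and deletes in T cells of both lineages, and WT donors had intact Stat3. In all groups, per the study's methods, donors were C57BL/6 mice, and donor T cells were sorted as H-2Kb+ and TCRβ+. The irradiated BALB/c recipients, which were WT by the sample titles, also received T cell-depleted marrow from WT donors. The study describes the recipients of WT T cells as having graft-versus-host disease (GVHD) and those of STAT3KO T cells as without it. Donor genotype and GVHD of the recipient therefore cannot be told apart here, and effects of STAT3 loss in the following include both. The age of the animals is not given in the sources used here. Each library pooled cells of several recipients, so a replicate is a pool of animals, and p-values measure the spread between 2 pools a group.

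NOX2 transfers electrons from NADPH across a membrane to oxygen and makes superoxide. Its catalytic chain, encoded by Cybb, is held in the membrane by the partner chain encoded by Cyba. On activation cytosolic subunits, among them those encoded by Ncf1 and Ncf4, dock there together with a Rac GTPase. The enzyme is best known from neutrophils and macrophages, where its loss causes chronic granulomatous disease, and most of its subunits are also expressed in lymphocytes.

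The libraries held between 20171396 and 23282757 counts. Stat3 was lower in all 4 STAT3KO libraries than in any WT library, with log2 fold changes of -1.63 for CD4 and -1.72 for CD8 T cells. The summed level of 8 T cell markers lay between 5117 and 6745 CPM (counts scaled for library size, here by column total). Replicate 2 of every group stood apart from replicate 1 by higher levels of macrophage genes and of markers of the other T cell type. The sum of 16 macrophage genes was between 3.18 and 5.18 times higher in replicate 2 than in replicate 1 of the same group. Cd8a in the CD4 libraries and Cd4 in the CD8 libraries were also higher in replicate 2. For example, Cd4 was at 1.04 and 6.61 CPM in WT CD8 and at 1.64 and 8.16 CPM in STAT3KO CD8 T cells, beside 1361 to 1602 CPM in the CD4 libraries. In bulk samples such as these, more cells of a type and more RNA per cell cannot be told apart. CPM in the following are scaled by TMM unless stated, and the values of a pair are replicates 1 and 2.

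On mm10 (GRCm38), Cybb is on the minus strand of chrX:9435254-9469324 and Ncf1 on the minus strand of chr5:134220053-134229625. Their promoters are shown because these were the genes whose levels differed most between the groups. Each sequence is the 250 bases before the RefSeq start of the gene (GRCm38.p6), in the direction of transcription, at chrX:9469325-9469574 for Cybb and chr5:134229626-134229875 for Ncf1. Capitals mark matches to 4 motifs that were searched on both strands: the STAT motif TTCNNNGAA, the PU.1 core GAGGAA, the CCAAT box CCAAT and the AP-1 motif TGANTCA.
Cybb: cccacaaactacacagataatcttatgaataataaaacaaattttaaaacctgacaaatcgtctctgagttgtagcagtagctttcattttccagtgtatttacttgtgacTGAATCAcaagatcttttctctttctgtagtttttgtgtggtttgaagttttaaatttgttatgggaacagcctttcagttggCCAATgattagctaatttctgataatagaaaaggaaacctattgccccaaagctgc
Ncf1: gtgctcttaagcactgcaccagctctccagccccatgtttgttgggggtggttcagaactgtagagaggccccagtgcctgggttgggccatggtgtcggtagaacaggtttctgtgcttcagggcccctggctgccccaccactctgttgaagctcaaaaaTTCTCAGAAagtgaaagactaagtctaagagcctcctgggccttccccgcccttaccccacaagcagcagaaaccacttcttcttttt

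In the Cybb window a CCAAT box lay at -56 to -52 from the start. At -139 to -133 lay TGAATCA, a match to the letters TGANTCA with A at the middle base, which the search left free. The Ncf1 window held a STAT match, TTCTCAGAA, at -88 to -80. Among 32851 promoter windows of the same length, 7.02% held the STAT motif, 23.3% the PU.1 core, 33.8% CCAAT and 6.75% the AP-1 motif. The motifs do not overlap in these windows. Of the other members, Cyba had an entry, and its window held none of the 4 motifs. These matches describe letters in the sequence and do not show binding.

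Cybb encodes gp91phox, the catalytic chain of NOX2. Among the CD4 libraries it was at 19.5 and 11.6 CPM in WT and at 127 and 145 CPM in STAT3KO. Among the CD8 libraries its level was 4.19 and 11.1 CPM in WT and 20.4 and 40.6 CPM in STAT3KO. STAT3KO CD4 T cells thus held by far the highest levels, and within each cell type both STAT3KO libraries were above both WT libraries. The replicates of WT CD8 and of STAT3KO CD8 T cells were wide apart, and the lower STAT3KO CD8 library lay close to the higher WT CD4 library.

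In CD4 T cells, where Cybb had been picked, the mean level was 135.6 ± 12.6 CPM in STAT3KO and 15.5 ± 5.61 CPM in WT (SD, n = 2), a log2 fold change of 3.13 that is given as a description. Of the called genes whose mean log2 CPM was 3 or more it was the first, ahead of Heatr9 at 2.95 and Gpm6b at 2.80. Among all 12428 tested genes it ranked 21. These places come from the comparison in which Cybb was picked, so nothing is read from them. Between same-numbered libraries the STAT3KO level was 6.50 times the WT level in replicate 1 and 12.5 times in replicate 2.

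The pick of Cybb rested on the CD4 libraries, so the effect of STAT3 loss was tested in the CD8 libraries. Earlier results of these data were known, and same-numbered CD4 and CD8 libraries share deviations, so the test is not fully independent of the pick. Mean Cybb was 30.5 ± 14.2 CPM in STAT3KO and 7.63 ± 4.87 CPM in WT CD8 T cells (SD, n = 2). The log2 fold change was 2.00 (SE 0.48, 95% confidence interval 0.87 to 3.12), but it did not pass the edgeR quasi-likelihood test over all genes (adjusted p = 0.0825). With the replicate number as a block, which the libraries' shared deviations call for, the fold change was again 2.00 and passed (edgeR adjusted p = 0.00595). Over the fits without the block the adjusted p lay between 0.0123 and 0.317, and leaving out 1 library gave log2 fold changes between 1.42 and 2.86.

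**Figure D1:**
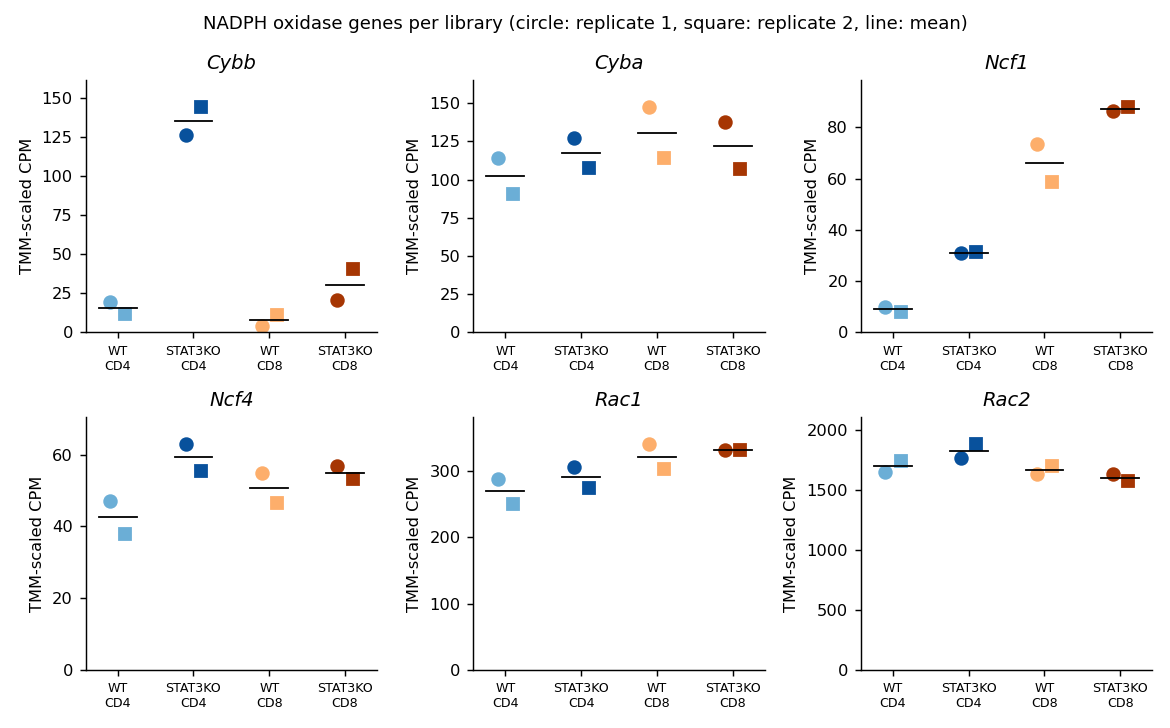
Level of each NADPH oxidase gene (TMM-scaled CPM, vertical axis from 0) in the 4 groups, with replicate 1 as circle, replicate 2 as square and the mean of 2 as line. Cybb stood at 127 and 145 CPM in STAT3KO CD4 T cells and at 40.6 CPM or less elsewhere, whereas Ncf1 was highest in the CD8 groups and Rac2 differed little.

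Cybb is also a macrophage gene, so its level was set beside that of the macrophage list, both as CPM by column total. The 16 macrophage genes, of which all 16 are in the table, summed in CD4 T cells to 31.8 and 137 CPM for WT and 38.5 and 184 CPM for STAT3KO, and in CD8 T cells to 48.0 and 249 CPM for WT and 69.3 and 221 CPM for STAT3KO. The sum was thus separated by replicate number and not by genotype. Cd68, Vcam1 and Mrc1 were its most abundant genes. None of the 5 defining markers (Adgre1, Csf1r, C1qa, C1qb and C1qc) was at 0 in any library, and together they gave between 4.38 and 81.7 CPM.

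Cybb did not follow this split by replicate in CD4 T cells. Its level in replicate 2 was 0.593 times that of replicate 1 in WT CD4 and 1.14 times in STAT3KO CD4 T cells. In CD8 T cells replicate 2 was higher, by 2.64 times in WT and 1.98 times in STAT3KO. In replicate 1 of STAT3KO CD4 T cells Cybb alone, at 125 CPM, was 3.23 times the sum of all 16 macrophage genes, whereas in replicate 2 of WT CD8 T cells it was 0.0460 times that sum.

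Within replicate numbers the genotypes were compared at macrophage sums that differed less than those between replicates. In CD4 T cells the macrophage sum was 1.21 times higher in STAT3KO than in WT in replicate 1 and 1.34 times in replicate 2, and Cybb was 6.42 and 12.1 times higher. As differences, the STAT3KO library held 105 CPM more Cybb and 6.69 CPM more of the summed macrophage genes in replicate 1 of CD4 T cells, and 132 and 47.0 CPM more in replicate 2. In replicate 2 of CD8 T cells the macrophage sum was lower in STAT3KO, at 0.887 times WT, and Cybb was 3.50 times higher, a difference of -28.1 CPM for the sum and 28.6 CPM for Cybb. In replicate 1 of CD8 T cells the macrophage sum was 1.44 times higher and Cybb 4.82 times, but in CPM the sum differed by more, 21.3 CPM against 15.9 CPM for Cybb. Cybb was thus higher in STAT3KO at each replicate number in both cell types, by a larger fold than the macrophage sum. In CPM its rise was not the larger one in replicate 1 of CD8 T cells. There the rise of the sum included that of Cd68, its most abundant gene, from 36.9 to 44.0 CPM. In replicate 2 of CD8 T cells Cd68 was lower in STAT3KO, at 39.9 against 50.9 CPM. It was also lower in STAT3KO in both CD4 pairs, for example at 13.7 against 17.7 CPM in replicate 2. The other macrophage genes together therefore rose by more than the sum in CD4 T cells. The 5 defining macrophage markers alone gave 7.78 and 51.3 CPM in WT and 12.3 and 64.9 CPM in STAT3KO CD4 T cells. For CD8 T cells they gave 4.38 and 81.7 CPM in WT and 9.95 and 62.8 CPM in STAT3KO. The CD4 pairs are those in which Cybb was picked and are a description. How many of the Cybb reads came from macrophages was not tested.

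**Figure D2:**
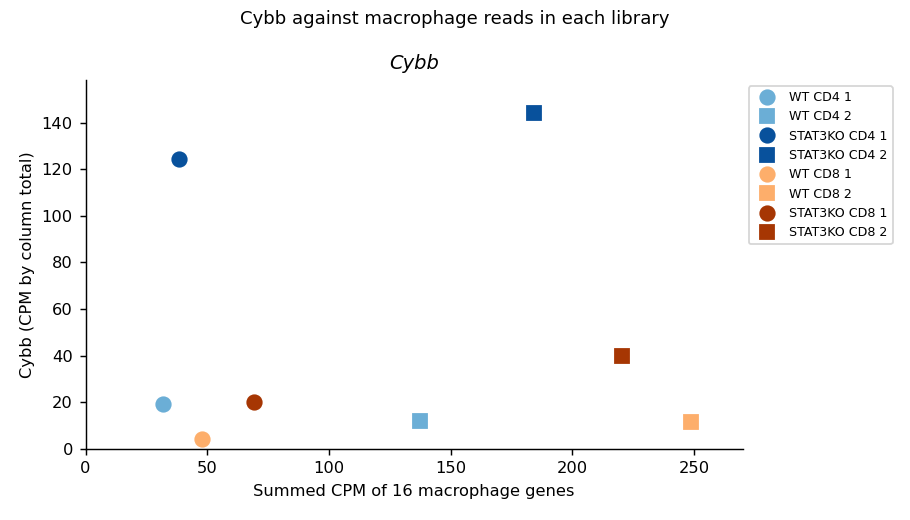
Cybb against the summed level of 16 macrophage genes in each library, both as CPM by column total on linear axes, with replicate 1 as circles and replicate 2 as squares. The 4 replicate 2 libraries are those with a macrophage sum of 137 CPM or more, while Cybb was highest in both STAT3KO CD4 libraries, at sums of 38.5 and 184 CPM.

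Other cells that express Cybb were also looked for. The neutrophil list of 10 genes, led by S100a9, S100a8 and Ngp, summed to between 3.54 and 22.4 CPM over the libraries, and its 4 defining markers to between 2.11 and 15.0 CPM. The B cell list, of which 7 genes are reported, summed in CD4 T cells to 107 and 96.1 CPM for WT and 149 and 170 CPM for STAT3KO, and in CD8 T cells to 43.4 and 51.5 CPM for WT and 37.5 and 54.7 CPM for STAT3KO. It was therefore highest in the group where Cybb was highest. Nearly all of it in CD4 T cells was Cd22, at 146 and 167 CPM in STAT3KO, followed by Cd79b and Ebf1, while the defining markers Cd79a and Ms4a1 gave between 0.0496 and 0.435 CPM together over the 8 libraries, 1 of the 2 being at 0 in 3 of them. The dendritic cell list of 10 genes summed in CD4 T cells to 29.2 and 37.2 CPM for WT and 43.6 and 64.7 CPM for STAT3KO. In CD8 T cells it summed to 277 and 275 CPM for WT and 213 and 193 CPM for STAT3KO. Itgax, Cd74 and H2-Aa were the most abundant genes of this list over the libraries, and its 4 defining markers summed to between 0.663 and 1.82 CPM. The part of these cells in the Cybb level was not tested.

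Cyba encodes p22phox, the membrane partner that stabilises gp91phox. The CD4 libraries held 114 and 90.4 CPM for WT and 127 and 107 CPM for STAT3KO, and the CD8 libraries 148 and 114 CPM for WT and 137 and 107 CPM for STAT3KO. The groups overlapped in every comparison, and replicate 2 was the lower library in all of them, at 0.771 to 0.846 times replicate 1. The log2 fold change for STAT3KO in CD8 T cells was -0.096 (SE 0.19, 95% confidence interval -0.53 to 0.34, edgeR adjusted p = 0.844), and its sign depended on single libraries. The lower end of the interval for Cybb lies above the upper end of this interval.

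Ncf1 encodes p47phox, the organiser that carries the cytosolic subunits to the membrane. For CD4 its level was 9.98 and 7.94 CPM in WT and 30.8 and 31.4 CPM in STAT3KO libraries. For CD8 it was 73.7 and 58.6 CPM in WT and 86.5 and 88.0 CPM in STAT3KO libraries. No group overlapped with another, and the order from WT CD4 over STAT3KO CD4 and WT CD8 to STAT3KO CD8 held for each replicate number.

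Ncf1 rose strongly from CD4 to CD8 T cells. The mean of WT CD8 T cells, 66.1 ± 10.6 CPM, was 7.38 times that of WT CD4 T cells, 8.96 ± 1.44 CPM (SD, n = 2). The log2 fold change of 2.88 (SE 0.16) passed the edgeR test with an adjusted p of 9.17e-05. In STAT3KO the CD8 level was 2.81 times the CD4 level, at a log2 fold change of 1.49 (SE 0.15, edgeR adjusted p = 0.00143). The macrophage sums were also higher in CD8 than in CD4 libraries of the same genotype and replicate number. In WT they differed less than Ncf1 did, at 31.8 against 48.0 CPM in replicate 1 and 137 against 249 CPM in replicate 2. Cd68, the most abundant gene of the list, was at 8.70 to 17.7 CPM in CD4 and at 36.9 to 50.9 CPM in CD8 libraries. The 5 defining markers were lower in CD8 in replicate 1, at 7.78 against 4.38 CPM in WT and 12.3 against 9.95 CPM in STAT3KO. In replicate 2 they were higher in WT CD8, at 51.3 against 81.7 CPM, but not in STAT3KO CD8, at 64.9 against 62.8 CPM. Whether macrophage RNA differed between the cell types was not tested.

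With STAT3 loss Ncf1 was 3.47 times higher in CD4 T cells, a log2 difference of 1.80 that is described without a test because it comes from the comparison in which Cybb had been picked. Where it was tested, in CD8 T cells, the level was 1.32 times higher, at a log2 fold change of 0.40 (SE 0.14, 95% confidence interval 0.067 to 0.73). It did not pass without the replicate block (edgeR adjusted p = 0.184) and passed with it, at 0.41 (edgeR adjusted p = 0.0276). Over the alternatives without the block the adjusted p lay between 0.148 and 0.614. The effect in CD8 minus that in CD4 T cells was -1.40 on the log2 scale (SE 0.21, edgeR adjusted p = 0.122), and -1.39 with the block (edgeR adjusted p = 0.0043). This difference of effects includes the CD4 libraries in which Cybb had been picked. It is one of folds, as mean Ncf1 rose from 8.96 to 31.1 CPM in CD4 and from 66.1 to 87.3 CPM in CD8 T cells.

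Ncf4 encodes p40phox, which binds a phosphoinositide of the phagosome membrane. Levels of 47.1 and 37.9 CPM in WT and of 62.9 and 55.5 CPM in STAT3KO were found for CD4 T cells, without overlap, a described log2 difference of 0.48. For CD8 T cells they were 55.0 and 46.4 CPM in WT and 56.7 and 53.3 CPM in STAT3KO. These pairs overlapped, and the log2 fold change of 0.12 (SE 0.14, 95% confidence interval -0.22 to 0.45) did not pass the edgeR test (adjusted p = 0.732).

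The GTPases Rac1 and Rac2 switch the assembled oxidase on, Rac2 being the form restricted to blood cells. Rac1 in CD4 T cells was at 288 and 251 CPM for WT and 307 and 274 CPM for STAT3KO, and in CD8 T cells at 341 and 304 CPM for WT and 332 and 332 CPM for STAT3KO. Rac2 in CD4 T cells was at 1652 and 1747 CPM for WT and 1769 and 1886 CPM for STAT3KO, and in CD8 T cells at 1635 and 1705 CPM for WT and 1632 and 1578 CPM for STAT3KO. Of the 6 members, Rac2 had the smallest ratio of the highest to the lowest group mean. The STAT3KO effect in CD8 T cells on the log2 scale was 0.042 for Rac1 (95% confidence interval -0.24 to 0.32, edgeR adjusted p = 0.899). For Rac2 it was -0.057 (95% confidence interval -0.24 to 0.13, edgeR adjusted p = 0.771).

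Some counts are uncertain because members share exon bases with a neighbour on the opposite strand, and the strand setting of the counting is not given in the sources used here. In the GENCODE M21 annotation Rac1 shares 2309 of 4496 exon bases with Daglb, and Ncf1 shares 408 of 3663 with Gtf2ird2. The counts were made over RefSeq genes, with 2364 exon bases for Rac1 and 2969 for Ncf1, so the shared part of the counted bases may differ. Daglb lay between 9.14 and 10.8 CPM and Gtf2ird2 between 9.55 and 13.7 CPM over the 8 libraries. Both ranges are narrow beside the difference of Ncf1 between groups. In GENCODE M21 no exon bases of Cybb, Cyba, Ncf4 or Rac2 are shared with another gene.

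Over the 6 genes, none passed the edgeR test for STAT3KO against WT in CD8 T cells, beside 2.07% of all tested genes. At an unadjusted p under 0.05 there were 2, Cybb and Ncf1. With the replicate block both of them passed, beside 18.2% of all genes in that fit, with the DESeq2 Wald test 1 did, namely Cybb, beside 7.12%, and with limma on RPKM 0. Without overlap between the groups, 2 members were higher (Cybb and Ncf1, beside 24.9% of all genes) and 1 was lower (Rac2, beside 24.8%). The median log2 fold change was 0.080 over the members and -0.0071 over all tested genes.

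In CD4 T cells all 6 were higher in STAT3KO, by a median of 0.34 on the log2 scale beside 0.017 over all tested genes, of which 52.1% were higher. In 4 of them (Cybb, Ncf1, Ncf4 and Rac2) the groups did not overlap, beside 28.5% of all genes. Of the 5 members besides Cybb, 1 was called (Ncf1, higher), where 11.6% of all genes were called, 6.54% as higher and 5.08% as lower, and 2 were called with the replicate block (Ncf1 and Ncf4), where 30.1% of all genes were. Nothing is read from these counts, as they come from the comparison in which Cybb was picked.

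**Figure D3:**
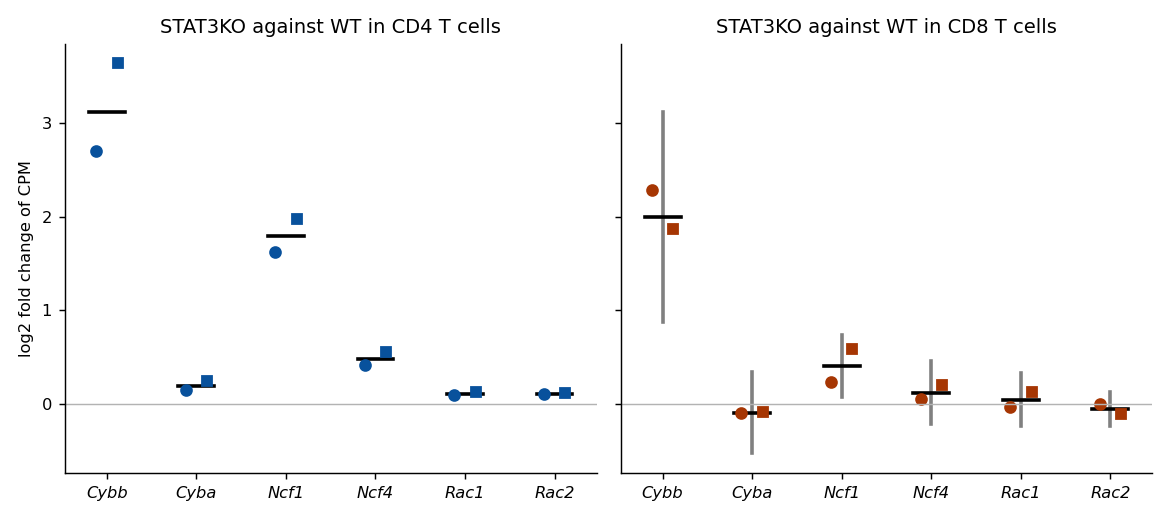
Log2 fold change of STAT3KO over WT in CD4 (left) and CD8 T cells (right) for each gene, with circles for replicate 1, squares for replicate 2 and a black line for the edgeR estimate, and in CD8 a grey bar for its 95% confidence interval. In CD8 T cells the intervals of Cybb (0.87 to 3.12) and Ncf1 (0.067 to 0.73) lie above 0 and those of the other 4 genes include it, before adjustment over all genes.

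Between the cell types, 1 of the 5 members besides Cybb passed the edgeR test in WT (Ncf1, higher in CD8), beside 23.8% of all genes, 12.2% higher and 11.6% lower. With the replicate block, 4 of 5 were called, beside 42.1% of all genes. These were Ncf1, Cyba with a log2 fold change of 0.35 (edgeR adjusted p = 0.00366), Rac1 with 0.26 (edgeR adjusted p = 0.0247) and Ncf4 with 0.26 (edgeR adjusted p = 0.0417), all higher in CD8. In STAT3KO, 1 of 5 was called (Ncf1, again higher in CD8), beside 12.5% of all genes, 5.84% higher and 6.67% lower. Cybb ran the other way from Ncf1, with log2 differences of CD8 to CD4 T cells of -1.02 in WT and -2.15 in STAT3KO, given without a test because they share libraries with the comparison in which it was picked. In replicate 2 of WT the difference was small, at 0.957 times the CD4 level.

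For the difference of the STAT3KO effects between CD8 and CD4 T cells, 0% of all genes passed the edgeR test without the block, although 982 had one under 0.05 before adjustment, and the smallest adjusted p was 0.0916. With the block 403 genes passed, with DESeq2 188 and with limma 13. The difference (CD8 minus CD4) was below 0 for all 6 members, at -1.13 for Cybb, -0.36 for Ncf4, -0.29 for Cyba, -0.16 for Rac2 and -0.066 for Rac1, the last with a sign that depended on single libraries. Of the 5 members besides Cybb, Ncf1 alone passed, with the block, beside 3.24% of all genes.

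Levels between the genes were compared per exon length, as RPKM. Rac2 was highest in every group, with means between 521 and 591 RPKM. Cyba, at 135 to 171 RPKM, and Rac1, at 114 to 138 RPKM, followed, and their libraries overlapped in WT CD4 and STAT3KO CD8 T cells. Ncf4 came next, at 29.2 to 40.0 RPKM.

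The last places were taken by Cybb and Ncf1, and their order differed between groups. In WT CD4 T cells they overlapped, with means of 3.27 ± 1.14 RPKM for Cybb and 3.02 ± 0.45 RPKM for Ncf1 (SD, n = 2). Among STAT3KO CD4 libraries Cybb, at 28.0 ± 2.33 RPKM, was above Ncf1, at 10.3 ± 0.029 RPKM. Ncf1 was above Cybb in CD8 T cells, with 22.1 ± 3.80 against 1.59 ± 1.00 RPKM in WT and 28.9 ± 0.016 against 6.31 ± 2.87 RPKM in STAT3KO. The highest gene was 186 times the lowest in WT CD4, 57.5 times in STAT3KO CD4, 343 times in WT CD8 and 82.6 times in STAT3KO CD8 T cells.

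**Figure D4:**
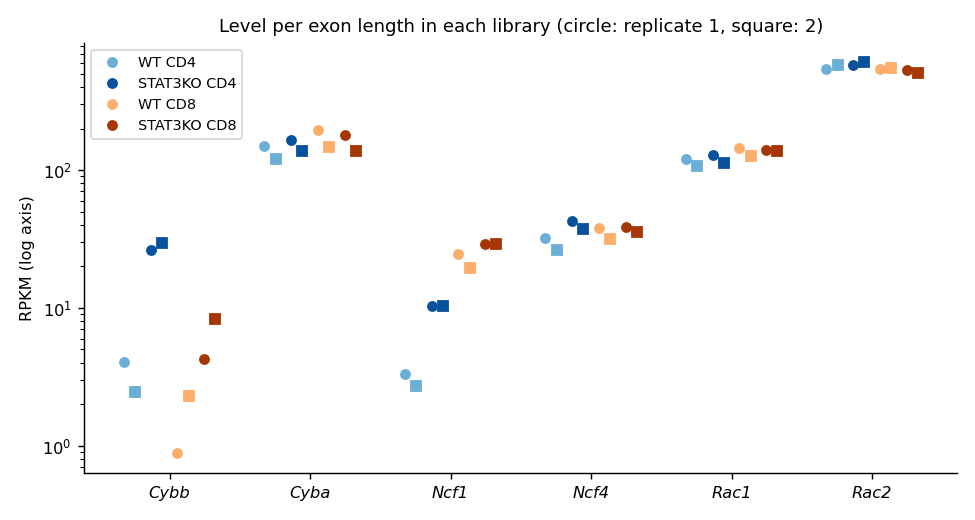
Level per exon length (RPKM, log axis) of the 6 genes in each library, coloured by group, with replicate 1 as circle and replicate 2 as square. Rac2 lies at 521 to 591 RPKM on average, while Cybb and Ncf1 spread from 1.59 and 3.02 to 28.0 and 28.9 RPKM between group means.

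Cybc1, the chaperone needed for gp91phox maturation, was at 95.2 to 122 CPM. With STAT3 loss its log2 fold change was 0.18 for CD4 (edgeR adjusted p = 0.325) and 0.11 for CD8 T cells (0.646).

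The other genes of oxidase assembly, other oxidases and superoxide disposal formed a list of 30, Cybc1 included, of which 21 were tested. Among the other oxidases, Nox3, Nox4, Duox1 and the maturation factor Duoxa2 had 0 reads in all 8 libraries. Duox2 had 2 reads, Duoxa1 1 and Nox1 59 in all libraries together, so Cybb was the oxidase chain with by far the most reads. Of the 21, 2 rose and 1 fell with STAT3 loss in CD4 T cells (14.3%, beside 11.6% of all genes), and the list's median was 0.049. With the replicate block 3 were higher and 5 lower (38.1%, beside 30.1% of all genes).

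Vav3, an exchange factor that loads Rac with GTP, rose in CD4 T cells from 30.1 and 28.5 CPM to 42.7 and 47.8 CPM (0.63 on the log2 scale, SE 0.14, edgeR adjusted p = 0.0305). Cat, the catalase that breaks down hydrogen peroxide, rose from 119 and 105 CPM to 157 and 156 CPM (0.48, SE 0.097, edgeR adjusted p = 0.0195). Hvcn1, the proton channel that balances the charge moved by NOX2, fell from 182 and 207 CPM to 129 and 141 CPM (-0.53, SE 0.10, edgeR adjusted p = 0.0173). In none of these 3 genes did the WT and STAT3KO CD4 libraries overlap, where 28.5% of all genes were higher without overlap. The 3 were named because they passed in this comparison, so the lack of overlap adds no support.

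For STAT3KO against WT in CD8 T cells none of the 21 passed the edgeR test, and the median was -0.043. With the block 1 was higher and 2 were lower (14.3%, beside 18.2% of all genes). Rap1a, a small GTPase found with the flavocytochrome, was the higher one, at 97.4 and 94.3 CPM in WT and 120 and 134 CPM in STAT3KO. Hvcn1, at 141 and 140 CPM against 113 and 110 CPM, and Vav2, at 6.01 and 8.17 CPM against 4.10 and 5.28 CPM, were the lower ones. For the difference of effects none of the 21 passed, with or without the block. Between the cell types 2 of the 21 were higher and 6 lower in CD8 than in CD4 T cells in WT (38.1%, beside 23.8% of all genes), and 0 and 4 in STAT3KO (19.0%, beside 12.5%). With the block these were 4 and 7 in WT (52.4%, beside 42.1%) and 1 and 9 in STAT3KO (47.6%, beside 29.7%). Without the block, the 4 lower in both genotypes were Vav2, Vav3, Tiam1 and Prkca.

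Over the 8 libraries the Pearson correlation of log2 CPM was positive for all pairs among Cyba, Ncf1, Ncf4 and Rac1, from 0.61 between Cyba and Ncf1 to 0.86 between Ncf1 and Rac1. Cybb correlated at -0.21 with Cyba, -0.20 with Rac1, -0.053 with Ncf1, 0.51 with Ncf4 and 0.56 with Rac2. Rac2 correlated at -0.68 with Rac1, -0.41 with Ncf1, -0.34 with Cyba and 0.0076 with Ncf4. These values describe libraries that share groups and replicate numbers, and carry no test. Over 8757 genes whose mean log2 CPM was 3 or more, those most like Cybb were Macf1 (0.979), Dtx3l (0.977), Irgm1 (0.973), Vps13d (0.969) and Serf2 (0.967).

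Those most like Ncf1 were Kif22 (0.999), D16Ertd472e, Ccnb2, Brca1 and Rrm1 (0.997). Kif22 for example was at 39.1 and 36.2 CPM (WT) and 77.3 and 76.7 CPM (STAT3KO) for CD4, and at 130 and 115 CPM (WT) and 137 and 137 CPM (STAT3KO) for CD8 T cells, the same order of groups as for Ncf1. For Cyba they were Mknk2, Ppp4c, Dhx37, Cd47 and Lmf2 (0.992 to 0.973), for Ncf4 Gfod1, Kdelr1, Gba2, Eps15l1 and Cchcr1 (0.987 to 0.977), for Rac1 Ccl4, Add1, Ywhae, Depdc5 and Mcmbp (0.991 to 0.980) and for Rac2 Apobec1, Ercc5, Rrnad1, Acad8 and Bcl2a1d (0.927 to 0.912). Rac2 had the weakest likeness to any gene, and its levels spanned the narrowest range.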

How the data were processed

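Per the study's methods, the authors mapped single-end reads to mm10 by STAR and used HTSeq to count them over RefSeq genes. The deposited counts are raw, and the deposited RPKM values are counts that the authors scaled for exon length and library size. Both cover 8 libraries and 25078 gene rows, of which 26 had names turned into dates. Groups came from the cell type and genotype fields of the labels. The growth and treatment fields describe an adipogenic cell line and were not used.

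The raw counts were filtered with filterByExpr (minimum count 10), scaled by TMM and fitted in edgeR 4.0.16 (R 4.3.3) with all 8 libraries and a mean per group. Genes were called by the quasi-likelihood test at a Benjamini-Hochberg adjusted p under 0.05 over 12428 genes, two-sided, and SE were derived from F. The fit without a replicate block was checked on simulated counts that held no replicate effect. The fit with the block was not checked in this way. Alternatives were RLE factors, total counts, no filter, the DESeq2 1.42.0 Wald test, limma 3.58.1 on log2(RPKM + 1), a replicate block, the 4 libraries compared alone, and each library left out. Deviations from the group means correlated between same-numbered libraries of all pairs of groups (r between 0.42 and 0.67 over genes), so the numbers were taken to pair the samples, and the fit with the block is given where it changes a call.

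The members and lists were chosen with earlier results of these data known. The text names the 6 members, Stat3 and T cell markers, Cybc1, pathway genes called in a STAT3KO comparison, the 3 genes leading each marker list of other cells, and the 5 genes most like each member. Vav2, Tiam1, Prkca and Rap1a and some counts of 5 or fewer were named after their values were seen. Some values are not reported here. Totals of 20171396 to 23282757 counts put the floor, taken as 3 counts, at 0.129 to 0.149 CPM, for counting error only.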

Additional observations from a re-analysis of the deposited data

Results flagged for a closer look

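On the log2 scale the effect of STAT3 loss on Ncf1 differed between the cell types once the replicate block was fitted. The comparison includes the CD4 libraries in which Cybb had been picked. The log2 fold change in CD8 minus that in CD4 T cells was -1.39 (SE 0.17, edgeR adjusted p = 0.0043), from log2 fold changes between same-numbered libraries of 1.63 and 1.98 in CD4 and of 0.23 and 0.59 in CD8 T cells. Ncf1 was higher in STAT3KO in 4 of 4 pairs of same-numbered libraries. In CPM its rises were close to each other, from means of 8.96 to 31.1 CPM in CD4 and of 66.1 to 87.3 CPM in CD8 T cells. Without the block the same difference had an adjusted p of 0.122 in edgeR, and over the alternatives without the block it ranged from 2.42e-05 to 0.497, passing with DESeq2 (2.42e-05) and without the filter on low counts (0.0237).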

How the results depend on the processing

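With the replicate block more genes passed the edgeR test: 2258 in place of 257 for STAT3KO in CD8, 3747 in place of 1444 in CD4, 5232 in place of 2960 for CD8 against CD4 in WT, 3689 in place of 1555 in STAT3KO, and 403 in place of 0 for the difference of effects. Members called rose from 0 to 2 of 6 in CD8, and, without Cybb, from 1 to 2 of 5 in CD4, from 1 to 4 of 5 between cell types in WT and from 0 to 1 of 5 for the difference of effects. The block changed no other call of a member among those tested (Cybb was tested only for STAT3KO in CD8). With DESeq2, 885 of 12428 genes (7.12%) and 1 member passed in CD8. In CD4 1847 genes and 2 members besides Cybb passed, and for the difference of effects 188 genes and 1 member. Without the filter on low counts 17623 genes were tested. Of these, 454 genes and 1 member passed in CD8, and 44 genes and 1 member for the difference of effects. For that difference limma on RPKM called 13 of the 12428 filtered genes. Fits of the 4 libraries compared called 20 genes in CD8, 950 in CD4 and 1937 between cell types in WT.

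Leaving out 1 library, the lone sample being assumed to vary like the other groups, gave 7 to 241 genes in CD8, 412 to 1320 in CD4, 1575 to 2573 between cell types in WT, 457 to 1605 in STAT3KO, and 0 for the difference. In CD8 the count was 70 and 73 without STAT3KO CD4 replicate 1 or 2, 34 and 11 without WT CD8 replicate 1 or 2, and 7 and 8 without STAT3KO CD8 replicate 1 or 2. In CD4 it was 581 without WT CD4 replicate 2 and 427 and 412 without STAT3KO CD4 replicate 1 or 2. Between cell types in WT it was 1575 without WT CD8 replicate 1. In STAT3KO it was 457 and 564 without STAT3KO CD4 replicate 1 or 2 and 539 and 639 without STAT3KO CD8 replicate 1 or 2. The number of members called, with Cybb counted only for STAT3KO in CD8, did not move in these fits (0, 1, 1, 1 and 0).

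Of 310 refitted log2 fold changes of members that were tested, 290 kept direction and call, 10 passed newly and 10 changed sign, all of the last when a library was left out and none of them called. Of 134 that are given without a test, 108 moved by less than the spread between replicates and 26 by more, and none changed sign. Leaving out 1 library gave between -0.29 and 0.10 for Cyba in CD8, -0.039 and 0.13 for Rac1 in CD8, -0.065 and 0.015 for Rac2 between cell types in WT, -0.13 and 0.23 for Cyba between cell types in STAT3KO, and -0.17 and 0.030 for Rac1 in the difference of effects. Cyba in CD8 became 0.10 without WT CD8 replicate 1 and 0.072 without STAT3KO CD8 replicate 2, and Rac1 in CD8 became -0.039 without WT CD8 replicate 2. Between cell types, Rac2 in WT became 0.015 without WT CD4 replicate 2 and 0.0042 without WT CD8 replicate 1, and Cyba in STAT3KO -0.054 without STAT3KO CD4 replicate 2 and -0.13 without STAT3KO CD8 replicate 1. For the difference of effects Rac1 became 0.030 without WT CD4 replicate 2, 0.017 without STAT3KO CD4 replicate 1 and 0.020 without WT CD8 replicate 1. The cause was not tested.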
